A study of Rattus norvegicus with 9 samples.

Results

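Heat shock proteins and the CCT chaperonin form the protein-folding machinery described here, and 63 of the 10412 genes named by a single-symbol probeset on the array belonged to it. The group was picked with earlier results of these data known, and its members were then taken by gene symbol: the Hsp70 (Hspa), Hsp110 (Hsph1), Hsp90 (Hsp90a), small heat shock protein (Hspb), chaperonin (Hspd, Hspe, Tcp1, Cct), J-domain (Dnaja, Dnajb, Dnajc), Bag and Stip1 genes, without Hspa5, Hsp90b1, Dnajb9 and Hspbap1, with no threshold on a measured value. Each gene was read from its brightest probeset, and 54 genes passed the filter on low signals. A further 4 probesets matched a member together with another gene and are described as shared probesets, outside these counts. Most members work in the cytosol, but the symbols also take in proteins of mitochondria (among them Hspd1, Hspe1, Hspa9 and Dnaja3) and of the endoplasmic reticulum (among them Dnajb11, Dnajc1, Dnajc3, Dnajc10 and Dnajc14).

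RNA came from a first-order side branch of the rat saphenous artery and was hybridised to 9 RAE230A arrays, 3 per group. SHR were male spontaneously hypertensive rats of 16 weeks, ACTH were male Wistar-Kyoto rats of 16 weeks given adrenocorticotropic hormone under the skin for 4 weeks (0.1 mg/kg/day by the labels, another dose in the methods), and WKY were male Wistar-Kyoto rats of that age. The labels list no treatment for SHR and WKY, and neither they nor the methods say whether these rats received vehicle. Each array held RNA pooled from 2 to 3 rats after 2 rounds of amplification, so p-values measure the spread between pools, and SHR and WKY are separate strains that differ in more than blood pressure.

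Hsp70 proteins bind unfolded stretches of other proteins in a cycle driven by ATP. J-domain proteins deliver clients and trigger ATP hydrolysis, Bag, Hspbp1 and Hsp110 proteins release the nucleotide, and Stip1 passes clients on to Hsp90, which holds steroid receptors and kinases ready for activation. The CCT chaperonin is a double ring that folds actin and tubulin, and small heat shock proteins, abundant in smooth muscle, keep denatured proteins from aggregating.

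Every array had been scaled to the same target, and its trimmed mean lay between 150.03 and 150.04. Scanning took 4 days: SHR 1, SHR 2 and WKY 2 shared the first, SHR 3 and the ACTH arrays the second, and WKY 3 and WKY 1 each had a day of their own, so that no day held both ACTH and WKY arrays. The ratio of 3' to 5' GAPDH signal, a measure of RNA length, was 3.57 to 5.16 in SHR, 3.67 to 4.52 in ACTH and 4.91 to 5.99 in WKY. By correlation over all kept probesets, the nearest array was one of the same group for 8 of 9 arrays, and WKY 2 was nearest to ACTH 1. Smooth muscle markers were bright on every array (summed signal 17548 to 19639 in SHR, 17186 to 18847 in ACTH and 17045 to 19828 in WKY, over 7 kept markers), and only 1 of 9 skeletal muscle markers was kept. That marker, Myh1, read 449 to 536 in SHR, 417 to 578 in ACTH and 594 to 641 in WKY. Its SHR and ACTH arrays lay below all WKY arrays without passing limma (adjusted p = 0.329 and 0.555).

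Of the 54 kept members, 2 were higher in SHR than in WKY, Dnaja1 and Dnajc10, and 0 were lower by limma at an adjusted p under 0.05, where 0.855% of all 6898 genes were called higher and 0.87% lower. In ACTH against WKY 1 member, Hspa2, was higher (background 0.536%) and 0 were lower (background 0.667%). In SHR against ACTH 1 member, Dnajc10, was higher (background 1.51%) and 0 were lower (background 1.62%). The F test over the 3 groups called 2 members, Dnajc10 and Hspa2, which is 3.7% of the members, beside 3.83% of all genes. At an unadjusted p under 0.05, limma gave 9 members higher (16.7%, beside 7.58% of all genes) and 3 lower (5.56%, beside 7.73%) in SHR against WKY. The counts were 5 higher (9.26%, beside 6.49%) and 2 lower (3.7%, beside 5.47%) in ACTH against WKY, and 6 higher (11.1%, beside 7.49%) and 2 lower (3.7%, beside 8.92%) in SHR against ACTH. The tests of the methods, run without moderation but called here at an adjusted p under 0.05, also gave 0 members lower in each comparison. The paper's own cutoffs were on unadjusted p-values. By the adjusted rule these tests called few probesets of any kind. The counts were 90 in SHR against WKY, 5 in ACTH against WKY and 119 in SHR against ACTH. As RNA came from whole vessel wall, fewer cells of a type and less RNA per cell cannot be told apart in any of these differences.

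Below these calls, most members lay a little higher in SHR. The change against WKY was positive for 38 of 54 members (70.4%, beside 49.8% of all genes), with a median log2 change of 0.16 (all genes 0.00) and a median standard error of 0.17 for a single member. All SHR arrays lay above all WKY arrays for 14 members (25.9%, background 9.5%) and below them for 2 (3.7%, background 9.16%). In ACTH against WKY the median was 0.03 (all genes 0.02), 33 of 54 changes were positive (61.1%, beside 54.2% of all genes), and the arrays did not overlap for 10 higher members (18.5%, background 10.6%) and 3 lower ones (5.56%, background 9.87%). Between SHR and ACTH the median was 0.08 (all genes -0.02), with 36 of 54 changes positive (66.7%, beside 47.8% of all genes) and with 12 members higher (22.2%, background 11.9%) and 4 lower (7.41%, background 12.9%) without overlap. The comparisons with WKY share the 3 WKY arrays. Among arrays scanned on the same day, the median member change was 0.14 for SHR 1 and SHR 2 against WKY 2 (all genes -0.03) and 0.09 for SHR 3 against the ACTH arrays (all genes 0.01).

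**Figure D1:**
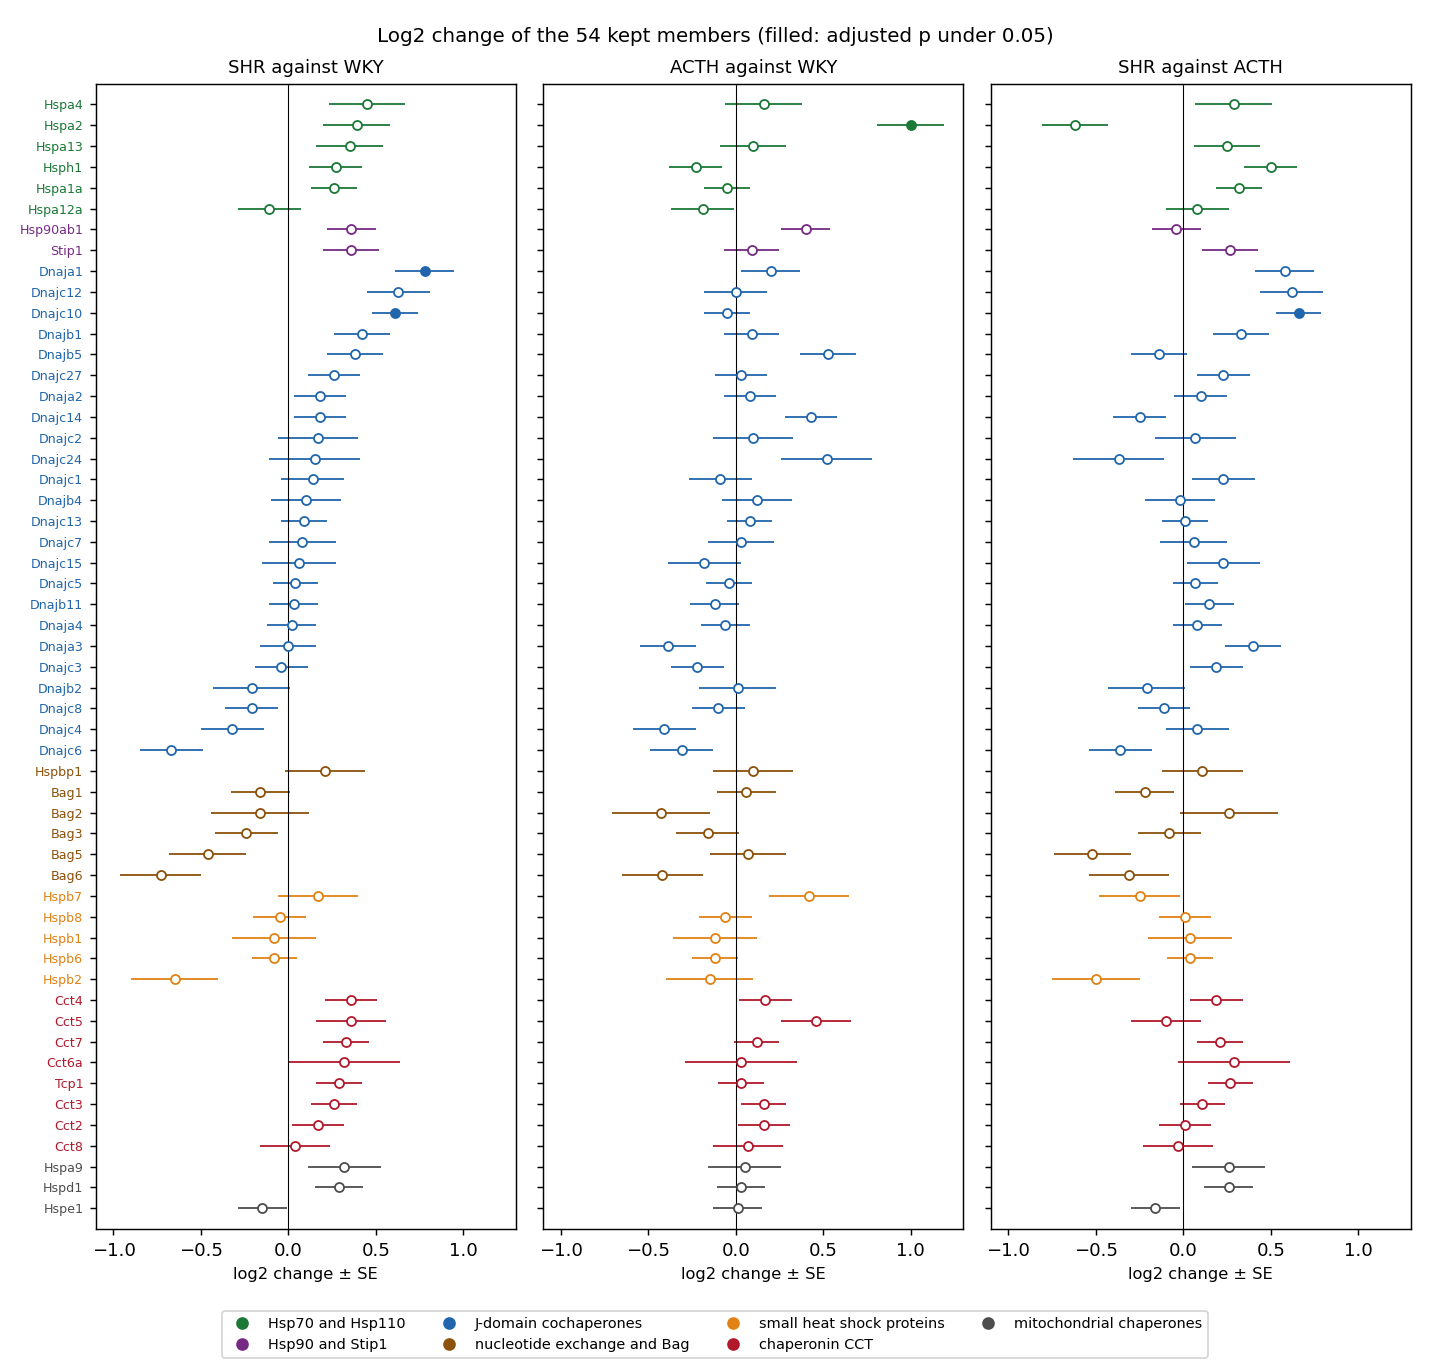
Log2 change (x axis, with its standard error) of the 54 kept members, coloured by role, for SHR against WKY, ACTH against WKY and SHR against ACTH; filled points have an adjusted p under 0.05. In SHR against WKY most Hsp70, Hsp90, J-domain and CCT genes lie right of 0, and 5 of the 6 Bag and Hspbp1 genes lie left of it.

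By role, the CCT subunits (median log2 change in SHR against WKY 0.31), the Hsp70 and Hsp110 genes (0.31) and the pair Hsp90ab1 and Stip1 (0.36) lay above the J-domain genes (0.10), while the small heat shock proteins (-0.08) and the Bag genes with Hspbp1 (-0.20) lay below 0. The level of all members on an array, taken as the median of their centred log2 signals, was 0.06, 0.13 and 0.08 on SHR 1 to 3, -0.01, -0.03 and 0.00 on ACTH 1 to 3, and -0.03, -0.08 and -0.06 on WKY 1 to 3. By this median each SHR array stood above the other 6 arrays. SHR 1 stood apart within its group for some roles: its small heat shock proteins lay at -0.59, against 0.13 and 0.20 on SHR 2 and SHR 3, and its Bag and Hspbp1 genes at -0.42, against 0.05 and 0.02.

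**Figure D2:**
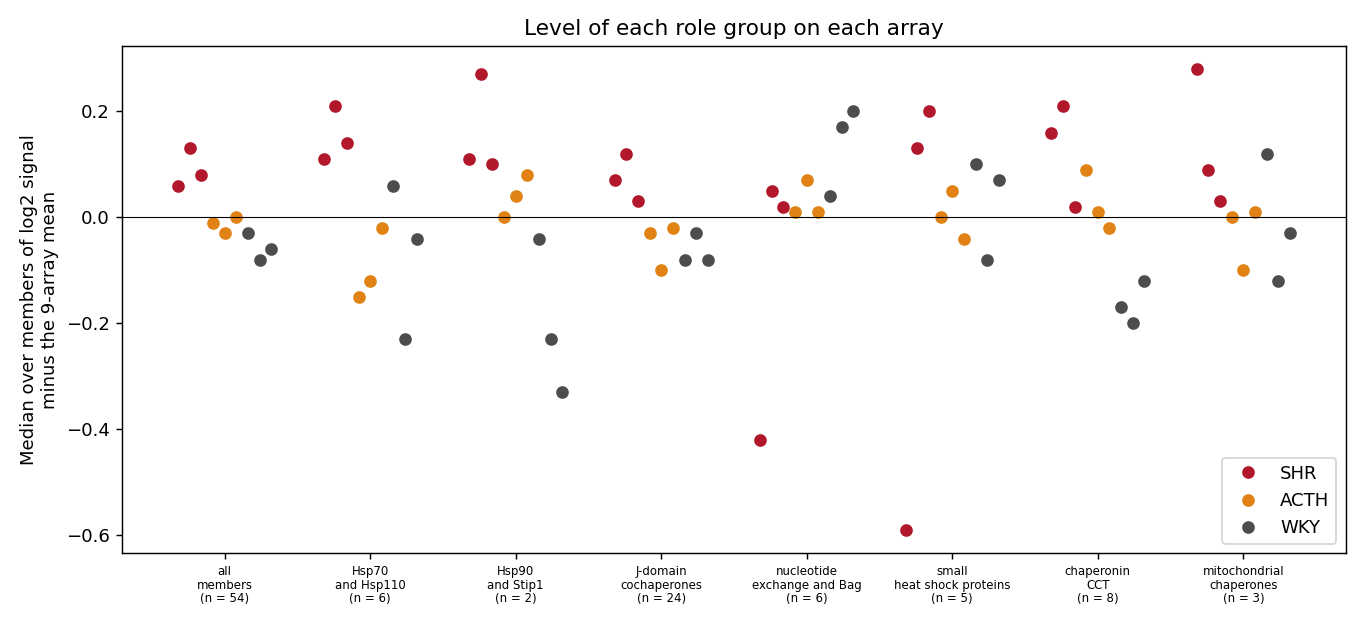
Median over the kept members of each role (x axis) of the log2 signal minus the mean over 9 arrays, 1 point per array, with replicates 1 to 3 of a group in order. The CCT points of WKY lie from -0.20 to -0.12, below all SHR and ACTH points, and SHR 1 lies at -0.59 for the small heat shock proteins.

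Promoter windows from RefSeq (build GRCr8, 250 bases before to 50 after the start of the gene) were in the table for 53 of the 63 members. Heat shock factor binds inverted repeats of GAA, and the letters GAANNTTC or TTCNNGAA, which read the same on both strands and can overlap by sharing a repeat, were found in 16 of these 53 windows (30.2%) and in 15.9% of 33469 promoter windows of all genes. The windows below are those of the 3 members that passed a test (Dnaja1, Dnajc10 and Hspa2) and of Dnajb1 and Hsph1, stress-inducible partners of Hsp70, written 5′ to 3′ on the strand of the gene with matching letters in capitals.
Dnaja1, chr5:60638154-60638453, plus strand: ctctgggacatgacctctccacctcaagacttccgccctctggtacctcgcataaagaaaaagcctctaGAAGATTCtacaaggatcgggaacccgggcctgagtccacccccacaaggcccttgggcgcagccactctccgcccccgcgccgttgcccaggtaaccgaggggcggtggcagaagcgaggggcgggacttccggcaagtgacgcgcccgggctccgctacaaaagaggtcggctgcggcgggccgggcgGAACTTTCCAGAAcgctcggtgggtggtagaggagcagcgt
Dnajc10, chr3:85639339-85639638, plus strand: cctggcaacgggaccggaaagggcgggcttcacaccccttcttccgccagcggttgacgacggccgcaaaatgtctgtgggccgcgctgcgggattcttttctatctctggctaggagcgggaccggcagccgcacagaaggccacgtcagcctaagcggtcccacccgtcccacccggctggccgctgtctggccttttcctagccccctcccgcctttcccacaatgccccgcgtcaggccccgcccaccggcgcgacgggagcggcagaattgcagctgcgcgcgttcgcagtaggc
Hspa2, chr6:100864192-100864491, plus strand: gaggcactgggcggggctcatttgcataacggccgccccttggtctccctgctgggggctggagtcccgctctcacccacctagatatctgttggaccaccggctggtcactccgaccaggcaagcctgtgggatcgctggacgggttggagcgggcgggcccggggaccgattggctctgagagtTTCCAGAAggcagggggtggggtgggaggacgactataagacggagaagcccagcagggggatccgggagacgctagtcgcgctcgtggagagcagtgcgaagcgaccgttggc
Dnajb1, chr19:41431092-41431391, minus strand: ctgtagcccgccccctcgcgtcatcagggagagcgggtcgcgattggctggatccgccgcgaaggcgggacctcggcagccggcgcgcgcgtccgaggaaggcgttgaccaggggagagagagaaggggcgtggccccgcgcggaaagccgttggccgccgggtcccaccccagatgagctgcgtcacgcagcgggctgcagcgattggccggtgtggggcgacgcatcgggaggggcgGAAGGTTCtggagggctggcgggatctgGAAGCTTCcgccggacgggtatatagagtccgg
Hsph1, chr12:10427118-10427417, plus strand: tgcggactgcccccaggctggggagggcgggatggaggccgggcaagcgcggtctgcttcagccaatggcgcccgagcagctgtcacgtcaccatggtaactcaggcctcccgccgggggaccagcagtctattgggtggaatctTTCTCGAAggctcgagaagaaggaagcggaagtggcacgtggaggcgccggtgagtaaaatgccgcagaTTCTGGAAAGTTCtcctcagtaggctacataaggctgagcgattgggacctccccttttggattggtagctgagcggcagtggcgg

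Dnaja1 held 3 matches, of which a pair shares a repeat next to the start site, Dnajb1 held 2, Hsph1 held 3, Hspa2 held 1 and the Dnajc10 window held 0. Among windows not shown, those of Hspa1a, the stress-inducible Hsp70, and of Hsp90ab1 and Tcp1 also held 0. A match is a description of letters and not a binding site, and its absence concerns these windows alone. The 16 kept members with such letters had a median log2 change of 0.30 in SHR against WKY (from -0.24 to 0.78, 11 positive, 7 without overlap higher and 0 lower), and the 29 kept members with a window but no match had a median of 0.09 (from -0.73 to 0.61, 21 positive, 6 without overlap higher and 2 lower). In ACTH against WKY both sets had a median of 0.03. Over all genes, 49.8% of the changes in SHR against WKY were positive, and the arrays did not overlap for 9.5% higher and 9.16% lower. These sets were formed after the changes were known, and their difference was not tested. The endoplasmic reticulum stress element, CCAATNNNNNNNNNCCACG searched on both strands, was found in 1 member window, that of Dnajc3, and in 0.0657% of all windows.

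Dnaja1, a J-domain protein that stimulates cytosolic Hsp70, showed the largest change in SHR against WKY among the kept members. Its brightest probeset read 750, 708 and 496 in SHR, 448, 426 and 415 in ACTH and 363, 405 and 356 in WKY. Every SHR array lay above every ACTH array, and every ACTH array above every WKY array, with SHR 3 the lowest of its group. Against WKY, SHR was 1.71-fold higher (log2 change 0.78 ± 0.17 SE, limma adjusted p = 0.0473), against ACTH 1.49-fold higher (0.58 ± 0.17, adjusted p = 0.104), and ACTH against WKY differed by 0.20 ± 0.17 (adjusted p = 0.708). The second probeset of Dnaja1 read 500, 402 and 365 in SHR, 352, 339 and 383 in ACTH and 208, 324 and 259 in WKY. It gave 0.69 ± 0.19 in SHR (adjusted p = 0.0971) and 0.46 ± 0.19 in ACTH (adjusted p = 0.34), again with all SHR and all ACTH arrays above WKY. In SHR against ACTH it gave 0.23 ± 0.19 (limma adjusted p = 0.587), with overlapping arrays. Within 1 scan day, on the brightest probeset, SHR 1 and SHR 2 exceeded WKY 2 by 0.85, and SHR 3 exceeded the ACTH arrays by 0.21. The SHR call was lost when any of the 8 arrays other than SHR 3 was left out (adjusted p from 0.0615 to 0.157), with log2 changes of 0.66 to 0.83. When the fit carried the GAPDH ratio as a covariate the SHR change was 0.54 (adjusted p = 0.418) and that of ACTH against WKY turned to -0.06 (adjusted p = 0.962). With scan day as a block the SHR change was the same 0.85 (limma adjusted p = 0.195). WKY 1 and WKY 3 had days of their own, so that fit compared the same arrays, SHR 1 and SHR 2 with WKY 2.

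**Figure D3:**
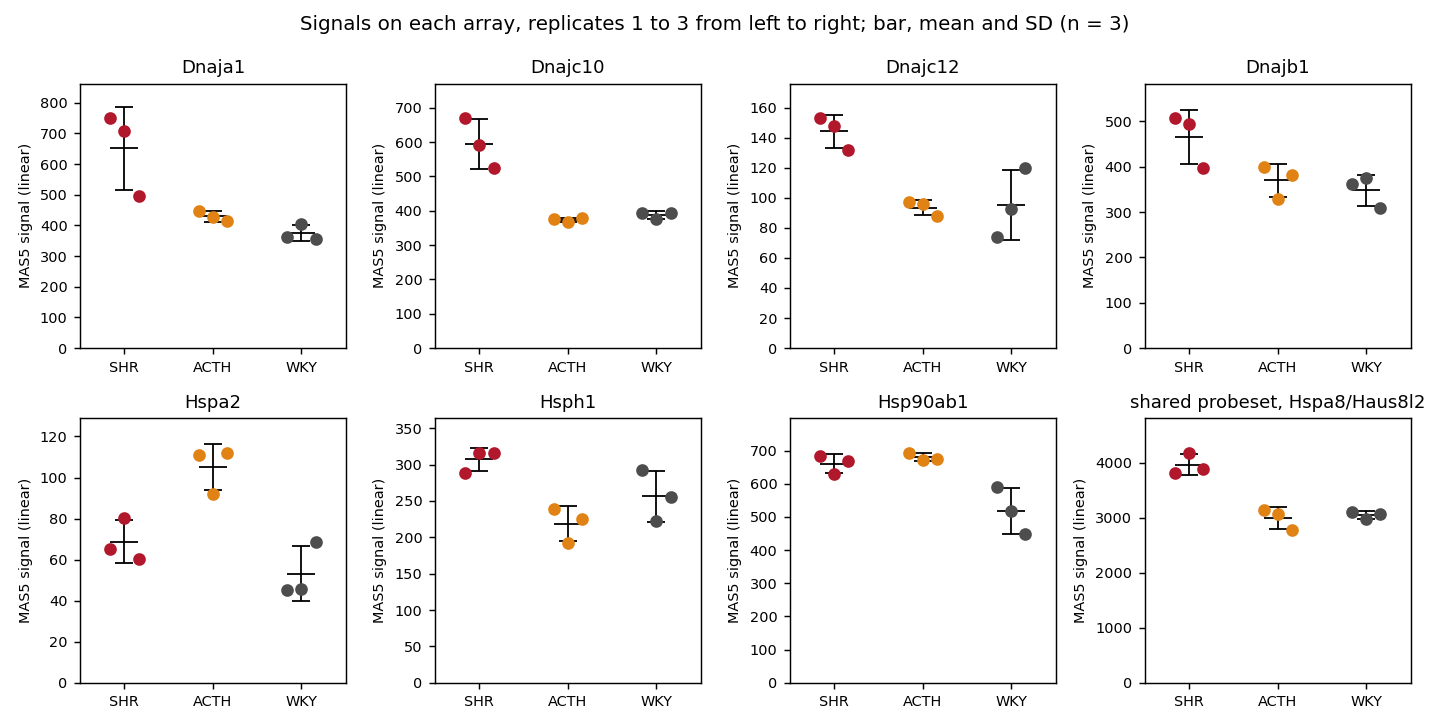
MAS5 signal (y axis, linear) on each array for 7 members and the shared Hspa8 probeset; bars are the mean and SD of 3 arrays. The SHR arrays lie above all others for Dnaja1, Dnajc10, Dnajc12 and the shared Hspa8 probeset, and the ACTH arrays for Hspa2.

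Dnajc10 encodes a disulfide reductase of the endoplasmic reticulum with a J-domain. Its brightest probeset read 670, 592 and 524 in SHR, 376, 368 and 379 in ACTH and 394, 375 and 394 in WKY. The SHR arrays stood clear of the other 6, which spanned 368 to 394. SHR was 1.53-fold higher than WKY (log2 change 0.61 ± 0.13, limma adjusted p = 0.0473) and 1.58-fold higher than ACTH (0.66 ± 0.13, adjusted p = 0.0258). The second probeset, designed from the same sequence record, ran the other way: 265, 190 and 191 in SHR, 261, 257 and 222 in ACTH and 261, 306 and 361 in WKY. Its SHR change against WKY was -0.53 ± 0.18 (adjusted p = 0.186), with SHR 1 inside the range of WKY. The mean of both probesets differed between SHR and WKY by 0.04 (adjusted p = 0.927), so the direction for Dnajc10 holds for the brightest probeset only. Within 1 scan day the brightest probeset gave 0.75 for SHR against WKY and 0.49 for SHR against ACTH. The call against WKY, too, was lost without any 1 of the arrays other than SHR 3 (adjusted p from 0.0788 to 0.138), and the call against ACTH was lost without ACTH 1, ACTH 2, ACTH 3, SHR 1 or SHR 2 (adjusted p from 0.0526 to 0.109). With the GAPDH covariate the change against WKY was 0.44 (adjusted p = 0.399), and that against ACTH was 0.67 (adjusted p = 0.0221). With scan day as a block neither call was kept (0.75, limma adjusted p = 0.231 against WKY, and 0.49, adjusted p = 0.393 against ACTH). These changes equal the within-day values, as the block left the same arrays to compare.

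**Figure D4:**
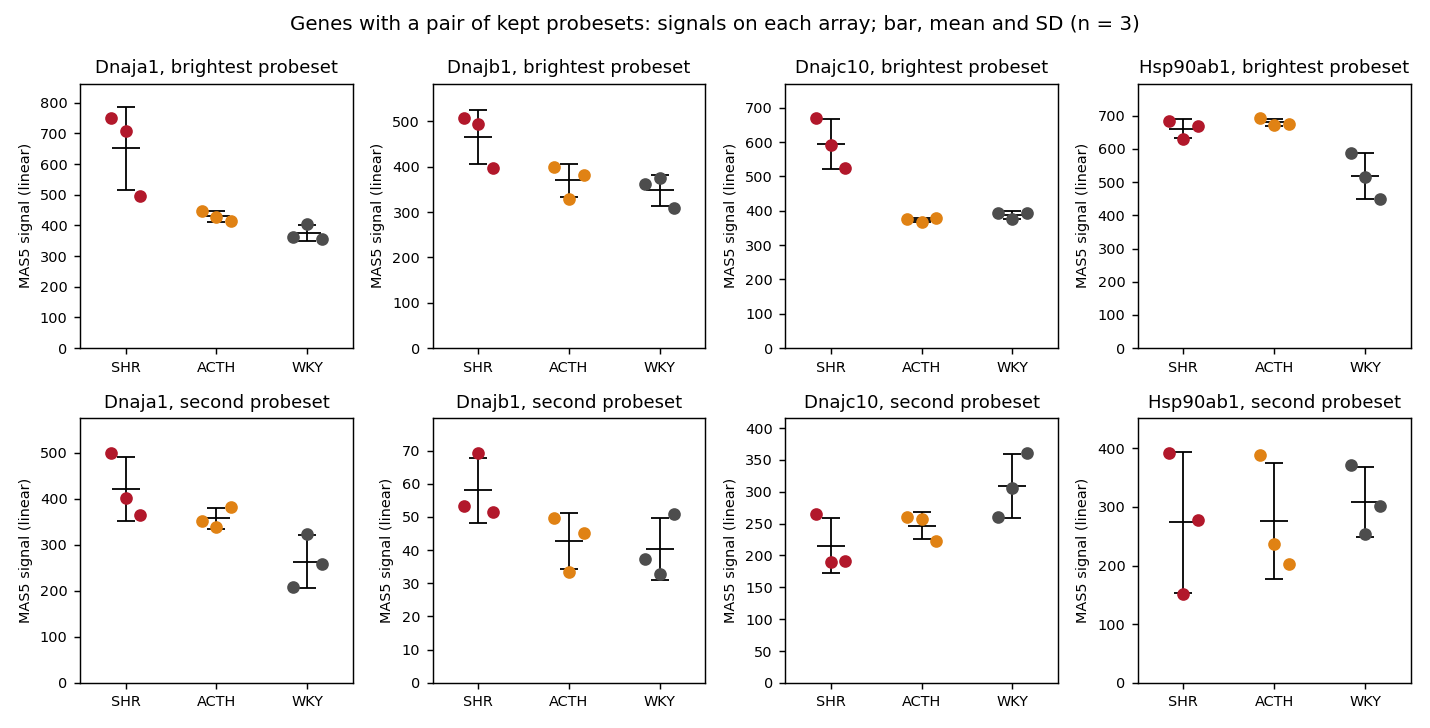
Signals (y axis, linear) on each array for the brightest probeset (top) and the second kept probeset (bottom) of Dnaja1, Dnajb1, Dnajc10 and Hsp90ab1; bars are the mean and SD of 3 arrays. The SHR arrays lie above all WKY arrays on both probesets of Dnaja1 and Dnajb1. The second Dnajc10 probeset has means of 215 in SHR, 247 in ACTH and 310 in WKY.

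Among the other 22 kept J-domain genes none passed after adjustment. Dnajc12, a cochaperone of the enzymes that hydroxylate aromatic amino acids in humans, read 153, 148 and 132 in SHR, 96.9, 95.8 and 87.8 in ACTH and 73.7, 92.3 and 120 in WKY. All SHR arrays lay above the rest, by 0.63 ± 0.18 against WKY (adjusted p = 0.117) and 0.62 ± 0.18 against ACTH (adjusted p = 0.094). Dnajb1, the main J-domain partner of Hsp70 in refolding, read 507, 494 and 398 in SHR, 400, 328 and 381 in ACTH and 361, 374 and 308 in WKY. SHR lay above WKY without overlap on this probeset (0.42 ± 0.16, adjusted p = 0.224) and on the second one (0.54 ± 0.21, adjusted p = 0.248), and ACTH against WKY was 0.09 on both.

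Dnajb5 and Dnajc14 were highest in ACTH. Dnajb5 read 101, 123 and 130 in SHR, 119, 136 and 134 in ACTH and 103, 79.9 and 88.4 in WKY, a log2 change of 0.38 ± 0.16 in SHR (adjusted p = 0.257) and 0.53 ± 0.16 in ACTH (adjusted p = 0.169). Only the ACTH arrays cleared all WKY arrays. Dnajc14, an endoplasmic reticulum protein that carries receptors to the cell surface, read 61.7, 74.7 and 72.4 in SHR, 84.7, 82.1 and 80.4 in ACTH and 61.8, 53.4 and 69.5 in WKY. The ACTH arrays lay above both other groups (0.43 ± 0.15 against WKY, adjusted p = 0.237), whereas the second probeset gave 0.15 ± 0.21. Dnajc6, or auxilin, which strips clathrin from vesicles with Hsp70, ran lower: 102, 96.2 and 106 in SHR, 114, 113 and 170 in ACTH and 175, 141 and 170 in WKY. The SHR arrays lay below both other groups, by -0.67 ± 0.18 against WKY (adjusted p = 0.0951).

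The remaining J-domain genes changed by -0.32 (Dnajc4) to 0.26 (Dnajc27) in SHR against WKY. Their SHR and WKY arrays overlapped except for Dnajc27. Dnaja4 depended on the probeset, with 0.02 ± 0.14 on the brightest and 0.68 ± 0.20 on the second, where SHR read 207, 252 and 205, ACTH 165, 163 and 161 and WKY 98.1, 155 and 170. In ACTH against WKY, Dnaja3, a mitochondrial J-domain protein, changed by -0.39 ± 0.16 (adjusted p = 0.352) and Dnajc4 by -0.41 ± 0.18 (adjusted p = 0.384).

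Hspa2, an Hsp70 best known from male germ cells, was the member called in ACTH. It read 65.4, 80.4 and 60.3 in SHR, 111, 92.1 and 112 in ACTH and 45.3, 45.6 and 68.6 in WKY. The ACTH arrays lay above all 6 others, and WKY 3 stood higher than the other WKY arrays, inside the SHR range. ACTH was 2.01-fold higher than WKY (log2 change 1.00 ± 0.19, limma adjusted p = 0.038); SHR differed from WKY by 0.39 ± 0.19 (adjusted p = 0.358) and from ACTH by -0.62 ± 0.19 (adjusted p = 0.13). The call was lost without ACTH 1, ACTH 2, ACTH 3, SHR 3, WKY 1 or WKY 2 (adjusted p from 0.0528 to 0.165), with log2 changes of 0.90 to 1.10. With the GAPDH ratio as a covariate it was 0.67 (adjusted p = 0.461). No scan day held both ACTH and WKY arrays, so the fit with scan day as a block reached this difference only through the SHR arrays, and it gave 1.47 with the call lost (adjusted p = 0.325).

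Hsph1, the Hsp110 that exchanges nucleotide on Hsp70, read 289, 316 and 316 in SHR, 239, 192 and 225 in ACTH and 292, 222 and 255 in WKY. WKY lay between the other groups, with 0.27 ± 0.15 in SHR (adjusted p = 0.404) and -0.23 ± 0.15 in ACTH (adjusted p = 0.613) against WKY. SHR exceeded ACTH on every array (0.50 ± 0.15, adjusted p = 0.117). Hspa1a, the stress-inducible Hsp70, showed a like order on its own probeset: 1028, 1043 and 927 in SHR, 760, 822 and 825 in ACTH and 876, 738 and 890 in WKY. All SHR arrays lay above the rest (0.26 ± 0.13 against WKY, adjusted p = 0.369). The probeset shared by Hspa1a and Hspa1b gave no such order, with 475, 662 and 429 in SHR, 561, 475 and 628 in ACTH and 531, 484 and 607 in WKY.

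Hspa4, a further Hsp110 relative, changed by 0.45 ± 0.22 in SHR (adjusted p = 0.35), with overlapping arrays, Hspa13 by 0.35 ± 0.19 (adjusted p = 0.396) and Hspa12a by -0.11 ± 0.18 (adjusted p = 0.805). Hspa8, the constitutive cytosolic Hsp70, was measured only on a probeset shared with Haus8l2. That probeset read 3824, 4184 and 3899 in SHR, 3149, 3065 and 2784 in ACTH and 3108, 2974 and 3071 in WKY. All SHR arrays exceeded the other 6, by 0.38 ± 0.12 against WKY (adjusted p = 0.174) and 0.41 ± 0.12 against ACTH (adjusted p = 0.119). ACTH and WKY differed by -0.03 ± 0.12.

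Hsp90ab1, the constitutive cytosolic Hsp90, read 685, 629 and 669 in SHR, 693, 673 and 674 in ACTH and 589, 517 and 449 in WKY. SHR and ACTH arrays overlapped each other and lay above all WKY arrays, by 0.36 ± 0.14 (adjusted p = 0.239) and 0.40 ± 0.14 (adjusted p = 0.246). The second probeset, from the same sequence record, gave -0.26 ± 0.34 and -0.20 ± 0.34 with wide spread (152 to 392 within SHR). Hsp90aa1, the inducible Hsp90, was read only from probesets shared with a pseudogene. The brighter gave 0.19 ± 0.17 in SHR and 0.35 ± 0.17 in ACTH with overlapping arrays, and the other read 574, 445 and 465 in SHR, 380, 379 and 362 in ACTH and 420, 278 and 348 in WKY, 0.52 ± 0.17 higher in SHR against WKY (adjusted p = 0.18). Stip1, which links Hsp70 to Hsp90, read 268, 366 and 269 in SHR, 229, 249 and 261 in ACTH and 252, 222 and 222 in WKY. The SHR arrays exceeded all others, by 0.36 ± 0.16 against WKY (adjusted p = 0.285).

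All 8 CCT subunits (Tcp1, Cct2 to Cct5, Cct6a, Cct7 and Cct8) were kept. The change was positive for all 8 in SHR against WKY (0.04 to 0.36), where 49.8% of all genes were positive, and for all 8 in ACTH against WKY (0.03 to 0.46, median 0.14), where 54.2% were. Both comparisons use the same 3 WKY arrays. In SHR against ACTH 6 of 8 were positive (-0.10 to 0.29), beside 47.8% of all genes. None passed after adjustment (lowest limma adjusted p 0.239 in SHR and 0.385 in ACTH), and at an unadjusted p under 0.05 2 subunits were higher in SHR (Cct4 and Cct7, background 7.58%) and 1 in ACTH (Cct5, background 6.49%). The SHR arrays cleared all WKY arrays for 5 subunits, Tcp1, Cct3, Cct4, Cct5 and Cct7 (background 9.5%), and the ACTH arrays for 3, Cct3, Cct4 and Cct5 (background 10.6%).

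Tcp1 read 2461, 2661 and 2455 in SHR, 1993, 2233 and 2080 in ACTH and 1828, 2167 and 2204 in WKY, with SHR alone high (0.29 ± 0.13 against WKY, adjusted p = 0.309). Cct7 had the same order, at 937, 997 and 926 in SHR, 788, 862 and 823 in ACTH and 793, 790 and 698 in WKY (0.33 ± 0.13, adjusted p = 0.239). Cct3 read 519, 546 and 506 in SHR, 500, 477 and 480 in ACTH and 469, 399 and 443 in WKY, with no overlap between any of the groups (0.26 ± 0.13 in SHR and 0.16 ± 0.13 in ACTH). Cct5 was high in ACTH and on a single SHR array: 1451, 861 and 846 in SHR, 1207, 1041 and 1034 in ACTH and 796, 818 and 761 in WKY. Its change was 0.36 ± 0.20 in SHR (adjusted p = 0.401) and 0.46 ± 0.20 in ACTH (adjusted p = 0.385).

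Cct4 read 1350, 1387 and 1051 in SHR, 1123, 1141 and 1043 in ACTH and 931, 985 and 1018 in WKY, 0.36 ± 0.15 higher in SHR (adjusted p = 0.257), with SHR 3 among the ACTH values. Cct2 (0.17 ± 0.15 in SHR), Cct6a (0.32 ± 0.32) and Cct8 (0.04 ± 0.20) had overlapping arrays, and Cct6a ranged from 99.5 to 223 within WKY. Between the arrays of the first scan day, SHR 1 and SHR 2 exceeded WKY 2 by 0.24 to 0.47 for 7 subunits and differed by -0.26 for Cct6a. On the second day SHR 3 differed from the ACTH arrays by -0.37 (Cct5) to 0.38 (Cct6a).

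**Figure D5:**
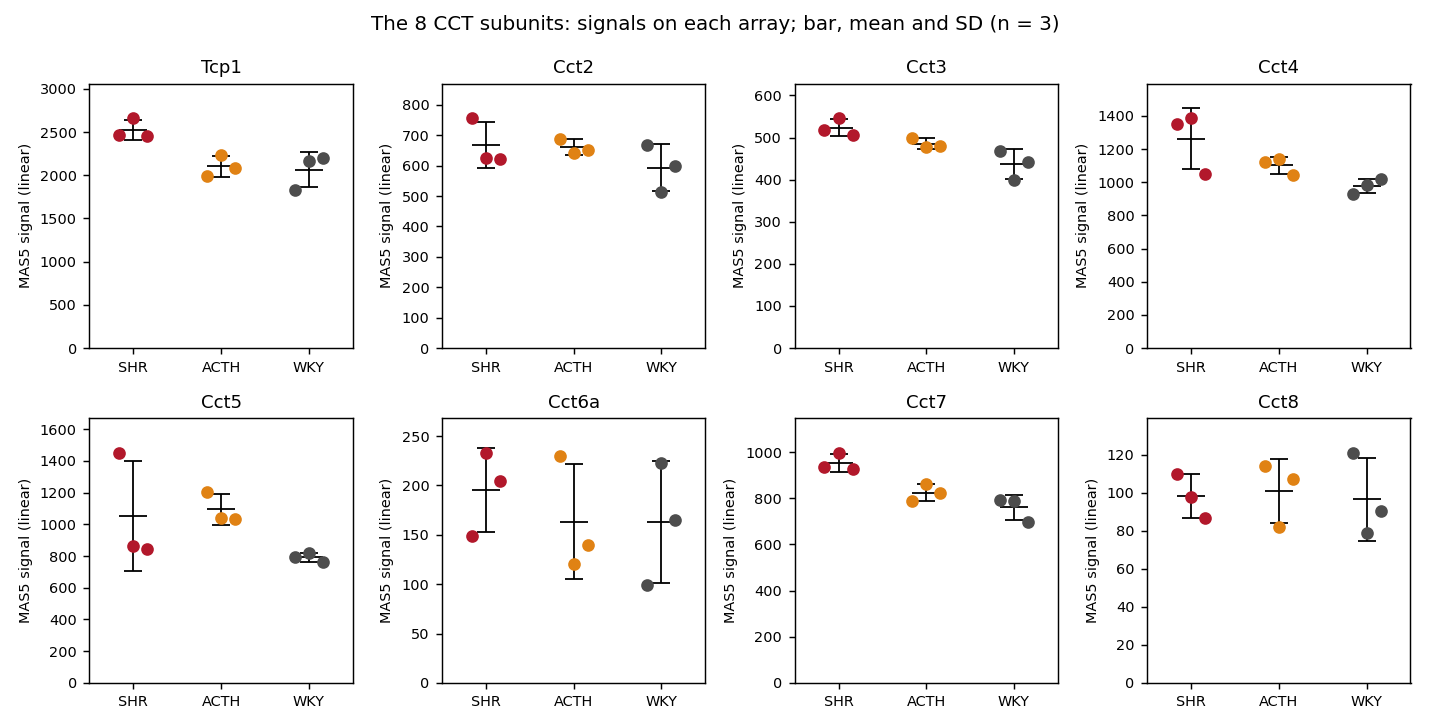
MAS5 signal (y axis, linear) of the 8 CCT subunits on each array; bars are the mean and SD of 3 arrays. Tcp1, Cct3, Cct4, Cct5 and Cct7 have all SHR arrays above all WKY arrays, while Cct2, Cct6a and Cct8 overlap.

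Of the Bag genes and Hspbp1, 5 of 6 lay lower in SHR than in WKY, none past the test. Bag6, which guards membrane proteins on their way to insertion, read 71.3, 98.3 and 140 in SHR, 143, 108 and 121 in ACTH and 158, 157 and 180 in WKY. Both SHR and ACTH lay below all WKY arrays, by -0.73 ± 0.23 (adjusted p = 0.146) and -0.42 ± 0.23 (adjusted p = 0.507). SHR 3 was the highest of its group and sat among the ACTH values. Bag5 read 94.7, 136 and 128 in SHR, 190, 163 and 158 in ACTH and 147, 129 and 223 in WKY, lower in SHR than ACTH on every array (-0.52 ± 0.22, adjusted p = 0.258). Bag3, the partner of Hspb8 in selective autophagy, changed by -0.24 ± 0.18 in SHR and -0.16 ± 0.18 in ACTH, Bag1 by -0.16 ± 0.17 and 0.06 ± 0.17, and Bag2 by -0.16 ± 0.28 and -0.43 ± 0.28. Hspbp1, an exchange factor for Hsp70, changed by 0.21 ± 0.23 and 0.10 ± 0.23.

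The small heat shock proteins did not pass in any comparison, with medians of -0.08 in SHR and -0.12 in ACTH against WKY. Hspb1 (Hsp27), which binds actin filaments in smooth muscle, read 1396, 2752 and 2441 in SHR, 2067, 2009 and 2073 in ACTH and 2732, 1810 and 2229 in WKY. SHR 1 was the lowest and SHR 2 the highest of the 9 arrays, so the spread within SHR exceeded any difference between groups (-0.08 ± 0.24). Hspb2 read 30.6, 37.8 and 67.0 in SHR, 56.4, 62.3 and 62.3 in ACTH and 67.3, 58.6 and 76.0 in WKY (-0.65 ± 0.25 in SHR, adjusted p = 0.239), where SHR 3 again sat with the other groups. Hspb6 (Hsp20), whose phosphorylation accompanies smooth muscle relaxation, and Hspb8 were even across groups (-0.08 ± 0.13 and -0.05 ± 0.15 in SHR). Hspb7 lay higher on every ACTH array than in WKY (0.42 ± 0.23, adjusted p = 0.52).

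The mitochondrial Hsp60 Hspd1 and its lid Hspe1 share 211 bases of their promoter windows (chr9:64084077-64084287, GRCr8), being read in opposite directions from a common stretch, but their signals did not run together. Hspd1 read 1303, 1274 and 1091 in SHR, 1073, 1000 and 974 in ACTH and 885, 1057 and 1050 in WKY, with every SHR array above the rest (0.29 ± 0.14 against WKY, adjusted p = 0.331). Hspe1 read 878, 998 and 1021 in SHR, 1015, 1094 and 1132 in ACTH and 1126, 956 and 1134 in WKY, overlapping throughout (-0.15 ± 0.14). Hspa9, the mitochondrial Hsp70, changed by 0.32 ± 0.21 in SHR (adjusted p = 0.475).

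SHR 3, the SHR array scanned with the ACTH arrays, was the lowest SHR array for 22 of the 54 members and the highest for 14. These ranks were not counted over all genes, so they do not set the members apart. Without SHR 3 the SHR against WKY comparison called 4 members, Dnaja1, Dnajc10, Bag6 and Hspb2, the last pair lower in SHR. Over all kept probesets that fit called 189, beside 186 in the main fit. Without both SHR 3 and WKY 2, an alternative chosen after seeing the data, the comparison called Dnaja1 and Hspb2, and 191 of all kept probesets.

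The 9 members that did not pass the filter (Dnajb12, Dnajb13, Dnajb3, Dnajc17, Dnajc21, Dnajc22, Hspa12b, Hspa1l and Hspb3) were dim, between 1.31 and 74.6 on their brightest probesets, and the third-highest signal of a kept probeset was at least 44.3. Dnajb12 read 13.2, 13.2 and 14.7 in SHR, 17.1, 28.5 and 24.6 in ACTH and 25.9, 20.4 and 23.4 in WKY. Dnajc21 read 30.5, 25.0 and 19.9 in SHR, 15.6, 20.2 and 22.3 in ACTH and 18.7, 16.6 and 14.3 in WKY. Their SHR arrays did not overlap the WKY arrays, Dnajb12 being lower and Dnajc21 higher, and neither was tested among the kept probesets. The second Dnajb12 probeset overlapped, at 3.28 to 16.1 in SHR and 9.38 to 23.3 in WKY. Hspa1l and Hspb3 lay higher without overlap in ACTH against WKY. In SHR against ACTH Hspa12b lay higher and Dnajb12 lower without overlap. The share without overlap was not counted over all dim probesets, so these orders do not set the members apart.

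Genes that work with the members were also read by function. Of 15 kept partners of Hsp70 and Hsp90 outside the symbol rule, 0 passed limma in any comparison, with a median of 0.10 in SHR and 0.09 in ACTH against WKY. At an unadjusted p under 0.05, 1 of them was higher and 2 were lower in SHR against WKY (all genes 7.58% and 7.73%), 1 was higher in ACTH against WKY (all genes 6.49%) and 0 differed in SHR against ACTH. Hsf1, the factor that drives the heat shock genes, was the only heat shock factor kept and differed by -0.39 ± 0.25 in SHR (adjusted p = 0.462). The 7 kept prefoldin and CCT helper genes, of which prefoldin hands actin and tubulin to CCT, had medians of 0.23 in SHR and 0.10 in ACTH, with 0 passing. At an unadjusted limma p under 0.05, 1 was higher (all genes 7.58%) and 1 lower (7.73%) in SHR, and 1 was higher in ACTH (6.49%). The 15 kept folding genes of the endoplasmic reticulum had medians of 0.04 in SHR and -0.18 in ACTH, also with 0 passing. By the same unadjusted rule 1 was higher in SHR (all genes 7.58%) and 1 lower in ACTH against WKY (5.47%). In SHR against ACTH 2 were higher (7.49%) and 0 lower (8.92%). Of these 15, 5 lay lower (background 9.87%) and 1 higher (background 10.6%) without overlap in ACTH against WKY. In SHR against ACTH their median was 0.17, with 12 positive (80%, beside 47.8% of all genes). There 5 lay higher (background 11.9%) and 0 lower (background 12.9%) without overlap. The receptors for glucocorticoids and mineralocorticoids, Nr3c1 and Nr3c2, which Hsp90 holds, changed by -0.23 ± 0.13 and -0.14 ± 0.18 in SHR and by -0.07 ± 0.13 and -0.20 ± 0.18 in ACTH.

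Immediate early genes and markers of the cells in the vessel wall were read on the same arrays. Of 10 kept immediate early genes 9 were positive in ACTH against WKY (all genes 54.2%), with a median of 0.56, 0 passing and 5 higher at an unadjusted p under 0.05 (all genes 6.49%). WKY 2 stood apart here: Fos, a subunit of the AP-1 factor, read 220, 200 and 169 in SHR, 445, 609 and 731 in ACTH and 56.1, 364 and 40 in WKY. Dusp1, a phosphatase for MAP kinases, read 471, 500 and 479 in SHR, 1099, 1214 and 1651 in ACTH and 600, 949 and 796 in WKY, lower in SHR than in ACTH (-1.43 ± 0.20, adjusted p = 0.00452).

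Markers of the main cell type moved in part. Of the 7 kept smooth muscle markers, Des (desmin) read 459, 807 and 838 in SHR, 1710, 1668 and 1477 in ACTH and 1786, 1687 and 2110 in WKY, and limma called SHR lower against WKY (-1.45 ± 0.22, adjusted p = 0.00708) and against ACTH (-1.25 ± 0.22, adjusted p = 0.0136). All SHR arrays lay below all WKY arrays for Lmod1 (-0.80 ± 0.25, adjusted p = 0.15), and the other 5 changed by -0.47 (Acta2) to 0.23 (Tagln). Of the 6 kept endothelial markers of 8 listed, Vwf (von Willebrand factor) read 366, 504 and 674 in SHR, 829, 1047 and 880 in ACTH and 1105, 1197 and 1350 in WKY, and SHR was called lower against WKY (-1.28 ± 0.21, adjusted p = 0.0116). The other 5 were positive in SHR against WKY (0.12 to 0.87) without passing, and the sum of all 6 was 2280 to 2765 in SHR, 2452 to 2938 in ACTH and 2844 to 3093 in WKY.

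The 5 kept macrophage markers of 8 listed were all positive in SHR against WKY (median 0.80, from 0.04 to 1.94) and in ACTH against WKY (from 0.88 to 3.11), with 0 passing. The highest change in both was that of C1qb, which read 1.33, 47.4 and 24.2 on WKY 1 to 3. At an unadjusted p under 0.05, 1 was higher in SHR and 5 in ACTH against WKY (all genes 7.58% and 6.49%). In SHR against ACTH all 5 were negative, 4 of them without overlap (background 12.9%). There limma called Cd14 lower (-0.83 ± 0.18, adjusted p = 0.0373). The sum of the 5 was 363 to 447 in SHR, 569 to 775 in ACTH and 182 to 455 in WKY, where WKY 2 again stood apart (C1qa 37, 181 and 59.4 on WKY 1 to 3). The 6 fibroblast markers, all kept, summed to 8267 to 9117 in SHR, 6875 to 7998 in ACTH and 8634 to 10124 in WKY. Among them Col1a1 (-1.91 ± 0.26, adjusted p = 0.00852) and Fmod (-1.18 ± 0.14, adjusted p = 0.00553) were called lower in ACTH than in WKY, while Dcn lay higher without overlap (0.50 ± 0.15, adjusted p = 0.174). In SHR against ACTH limma called Col1a1 (1.19 ± 0.26, adjusted p = 0.037) and Fmod (0.89 ± 0.14, adjusted p = 0.00817) higher. Dcn lay lower there without overlap (-0.31 ± 0.15, adjusted p = 0.327). The 3 kept adipocyte markers of 8 listed summed to 820 to 919 in SHR, 635 to 801 in ACTH and 596 to 784 in WKY. Cfd (adipsin) was called higher in ACTH than in WKY (2.36 ± 0.45, adjusted p = 0.0362), and Lpl lay lower without overlap (-0.54 ± 0.16, adjusted p = 0.178). In SHR against WKY all 3 were positive (Fabp4 1.38 ± 0.54, Cfd 1.21 ± 0.45, Lpl 0.10 ± 0.16), with 0 passing limma and overlapping arrays. In SHR against ACTH Fabp4 (1.13 ± 0.54) and Lpl (0.64 ± 0.16) lay higher and Cfd lower (-1.14 ± 0.45). Each was without overlap and 0 passed (lowest limma adjusted p 0.0656). The 4 kept Schwann cell markers of 8 listed summed to 1752 to 2113 in SHR, 1886 to 1991 in ACTH and 1406 to 2149 in WKY. Most of that sum was Pmp22, at 1220 to 1884. In SHR against WKY 2 of the 4 changes were positive and 2 negative, and in SHR against ACTH 1 and 3. S100b lay lower in SHR without overlap against WKY (-0.46 ± 0.19, limma adjusted p = 0.272) and against ACTH (-0.72 ± 0.19, adjusted p = 0.0727). The part of these genes and cells in the member changes was not tested.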

How the data were processed

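RAE230A arrays were processed by the authors with MAS5 to a target of 150, and the deposited table holds the resulting linear intensity of each probeset, with no detection calls. Scan days were read from the array settings files. Filtering kept the 9098 non-control probesets of 15923 ranked highest by their third-highest signal, a number taken from the methods. Gene symbols are those of the platform annotation. Log2 signals of the 9 arrays entered 1 limma model (version 3.58.1, R 4.3.3; lmFit and eBayes; 6 residual degrees of freedom). Two-sided p-values were adjusted over the 9098 probesets (Benjamini-Hochberg) and called below 0.05. Percentages of all genes refer to the brightest kept probesets of 6898 genes, and errors of log2 changes are standard errors. Genes were named where they passed a test, had an unadjusted F p under 0.05, or belonged to the CCT or core chaperones, and others were added as examples of their role. Members and lists were chosen with earlier results of these data known. The model was tested on simulated data for SHR against WKY (200 of 9098 probesets changed in each of 20 runs): it found 9.33% of log2 changes of 0.5, 66.7% of changes of 1 and 89.7% of changes of 1.5, so that 3 arrays per group limit precision. Alternatives covered filters, scaling, 16 added before log2, covariates, blocks, the methods' tests, the mean of a gene's probesets and each array left out.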

Additional observations from a re-analysis of the deposited data

How the results depend on the processing

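In SHR against WKY 0 members were called with the GAPDH ratio covariate, all non-control probesets, the groups compared alone, the mean of all kept probesets per gene and the scan day block, and 1 with median centring (Dnaja1) and with the methods' tests (Dnajc10). In ACTH against WKY 0 were called with the GAPDH covariate, all non-control probesets, the groups alone, a mean signal of at least 100 (which left out the Hspa2 probeset), the methods' tests, the scan day block, and SHR 3 and WKY 2 left out together. In SHR against ACTH 0 were called with all non-control probesets, the mean of probesets and the scan day block, 2 with the groups alone (Dnajc10 and Dnajc12) and 3 without SHR 3 and WKY 2. Calls over all probesets also fell with the GAPDH covariate, all non-control probesets and the scan day block. For SHR against WKY they were 34, 72 and 26, beside 186 in the main fit. For ACTH against WKY they were 0 with each, beside 110, and 5 with the methods' tests. For SHR against ACTH they were 288, 52 and 35, beside 309. The loss of calls was thus not confined to the members. The F test called 0 with the GAPDH covariate, all non-control probesets and the scan day block, and 1 with the mean of probesets and with the methods' tests. With single arrays left out the counts ran from 0 to 4 in SHR against WKY, from 0 to 1 in ACTH against WKY, from 0 to 3 in SHR against ACTH and from 0 to 3 in the F test. Calls over all probesets then ran from 102 to 214 in SHR against WKY. They ran from 33 to 133 in ACTH against WKY and from 111 to 324 in SHR against ACTH. With quantile normalization, a variance trend and 16 added before log2, each member count stayed within 1.5 times its value in the main fit.

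Replicate numbers did not pair the arrays (correlations of same-numbered deviations from -0.067 to 0.128). A replicate block called 0 members in SHR against WKY, in ACTH against WKY and by the F test, and 1 in SHR against ACTH.

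The median member change in SHR against WKY was 0.11 with the GAPDH covariate, 0.13 with 16 added, 0.12 with the mean of probesets, 0.19 with median centring and 0.10 to 0.16 with single arrays left out. In ACTH against WKY it was -0.01 with the GAPDH covariate and 0.00 to 0.04 with single arrays left out. In SHR against ACTH it was 0.11 with a mean signal of at least 100, 0.12 with median centring, 0.11 without SHR 3 and WKY 2, and 0.05 to 0.11 with single arrays left out. Dnaja1 in ACTH against WKY turned to -0.06 with the GAPDH covariate (adjusted p = 0.962). The cause of these shifts was not tested.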
